A study of Mus musculus with 36 samples.

Results

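YAP and TAZ are transcriptional coactivators, encoded by Yap1 and Wwtr1, and the 10 genes described here are these coactivators, genes that they switch on and genes that regulate them. The members were taken by gene name: Yap1, Wwtr1, Ctgf (current symbol Ccn2), Cyr61 (Ccn1), Ankrd1, Amotl1, Amotl2, Lats1, Lats2 and Ajuba. All 10 had a row in each of the 3 tables of normalized read counts, which together named 20958 genes. The tables held 20 mouse RNA-seq libraries out of 36 samples. The other samples, 15 of ChIP-seq and 1 of ATAC-seq, were left aside. KSIC_806 cells, a pancreatic ductal adenocarcinoma (PDA) line grown in serum, carried the label RREB1 KO or RREB1 WT, for the zinc finger transcription factor gene Rreb1. Each genotype was treated with TGFβ (100 pM, labelled 1.5 h) or with SB505124 (2.5 µM, labelled 6 h), a compound that blocks the type I receptor of TGFβ, with 2 libraries per group. All 8 KSIC_806 libraries also carried the mark S4, which the labels do not explain. E14 mouse embryonic stem cells labelled RREB1 KO or WT were sampled at day 4 and day 0 of an embryoid body (EB) culture, again with 2 libraries per group. Organoids of pancreatic epithelial cells (CIY_organoid) received the same TGFβ or SB505124 treatment with doxycycline (dox, 1 µg/mL at plating) or without it, with 1 library per condition; what dox induces is not given in the labels. Ligand and labelled time differed together in every TGFβ comparison, so their effects cannot be told apart.

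Recovered depth was 38.73 to 44.5 M reads in 7 KSIC_806 libraries and 20.41 M in KO SB505124 replicate 1, 19.89 to 29.08 M in the EB table and 23.91 to 35.81 M in the organoids. The Rreb1 transcript was not lost in the libraries labelled KO: it was higher in KO than WT KSIC_806 cells under SB505124 (log2 fold change 0.56) and lower under TGFβ (−0.65), higher in KO than WT at day 0 (1.38), and not called at day 4 (0.15, adjusted p = 0.198). KO stands here for the label alone. The replicates of 2 KSIC_806 groups stood further apart than the others: a chi-square over its degrees of freedom was 37.2 between the KO TGFβ libraries and 45.8 between the WT SB505124 libraries, against 2.84 for KO SB505124 and 1.89 for WT TGFβ, and 3.24 to 10.6 in the EB table. Member calls that change when 1 library is left out are given beside their results. Whether the replicates were separate cultures is not stated in the labels, and p-values therefore measure the spread between these libraries, which may be technical. No separate lines or clones are named within a genotype, so genotype and line cannot be told apart. Epithelial markers (Epcam, Cdh1, Krt8, Krt18, Krt19, Cldn7) reached a value of 10 in all organoid libraries for 6 of 6 genes and in KSIC_806 cells for 5 of 6, with Cldn7 at 0 to 3.28. All 6 pluripotency markers reached it in E14 cells. The group means of all 6 epithelial markers did so there too, so that list at this value does not tell the systems apart.

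In the Hippo pathway the kinases LATS1 and LATS2 phosphorylate YAP and TAZ, which keeps them out of the nucleus and promotes their breakdown. In the nucleus YAP and TAZ bind TEAD transcription factors and switch on genes such as Ctgf, Cyr61 and Ankrd1, together with genes of their own inhibitors, Lats2 and Amotl2 among them. Angiomotin-like proteins bind YAP and TAZ, and the LIM protein AJUBA binds and restrains LATS kinases. In pancreatic ductal cancer YAP supports tumour growth, and in early embryos Hippo signalling separates outer from inner cells. Transcript levels do not show where the YAP and TAZ proteins are.

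The promoters of the target genes Ankrd1 and Cyr61 are shown because they hold words that TEAD and SMAD factors bind and belong to the targets whose responses differed between the genotypes. RefSeq (GRCm38.p6) gave the 250 bases before the start site for 9 of the 10 members; Ctgf was not among them. Each window was searched on both strands for the TEAD core GGAATG, the SMAD word CAGAC, the GC-rich SMAD word GGCGCC, the AP-1 word TGANTCA and the SRF CArG box. In the sequences, capitals mark matches to GGAATG or CAGAC on either strand, and both run 5′ to 3′ on the minus strand, on which the genes lie.
Ankrd1, chr19:36119845-36120094: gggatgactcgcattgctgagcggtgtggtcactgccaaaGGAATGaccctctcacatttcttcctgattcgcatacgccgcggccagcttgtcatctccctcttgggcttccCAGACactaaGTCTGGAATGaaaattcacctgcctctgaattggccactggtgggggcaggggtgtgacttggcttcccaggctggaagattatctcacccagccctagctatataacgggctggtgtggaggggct
Cyr61, chr3:145649986-145650235: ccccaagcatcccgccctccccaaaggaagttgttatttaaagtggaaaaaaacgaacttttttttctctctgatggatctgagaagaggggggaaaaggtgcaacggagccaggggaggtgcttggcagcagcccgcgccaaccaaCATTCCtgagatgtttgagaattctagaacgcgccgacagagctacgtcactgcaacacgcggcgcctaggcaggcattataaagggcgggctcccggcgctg
The Ankrd1 window held GGAATG at 210 and at 123 bases before the start, CAGAC at 137 and its reverse complement GTCTG at 127, the last of which shares 1 base with the second GGAATG. The Cyr61 window held CATTCC, the reverse complement of GGAATG, at 103 and GGCGCC at 42. GGAATG was found in 6 of 9 members with a window (Ajuba, Amotl2, Ankrd1, Cyr61, Wwtr1 and Yap1), against 14.4% of all 27025 genes with a window, and not in the windows of Amotl1, Lats1 or Lats2. The windows of Amotl1 and Amotl2, and 1 window of Lats2, lay inside the span of the gene. The outer ends of Amotl1 and Amotl2 were therefore not searched. CAGAC was found in 4 of 9 (Ajuba, Ankrd1, Lats1 and Yap1), against 45.8% of all genes, and GGCGCC in 2 (Cyr61 and Lats2), against 10.8%. The AP-1 word and the CArG box were in none of the 9, against 7.82% and 1.62% of all genes. The member windows were richer in CpG (median observed over expected 0.75, against 0.37 over all windows) and in GC (61.6%, against 52.4%). A match is a description of the letters and not of binding.

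Under TGFβ the KSIC_806 cells kept Yap1 at the same level within the spread, while the target genes parted: Ctgf rose in both genotypes, Ankrd1 fell in both, and Cyr61 rose in KO and fell in WT. In KO cells 2 of the 10 members rose and 4 fell, where 38.7% of all 13226 genes tested were called (20.6% higher, 18.0% lower). A call is an adjusted p under 0.05 in limma on log2(normalized count + 1), with Benjamini-Hochberg adjustment over all genes tested, and each log2 fold change is on that scale, given with its standard error (SE). In WT cells 3 rose and 5 fell, where 36.9% of all genes were called (19.4% higher, 17.6% lower). The median log2 fold change of the members was −0.26 in KO (0.02 over all genes) and −0.15 in WT (0.00). The count in WT rested on few libraries: it was 5 without WT TGFβ replicate 1 and 4 without replicate 2, which leave that arm with a lone library assumed to vary like the others.

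**Figure D1:**
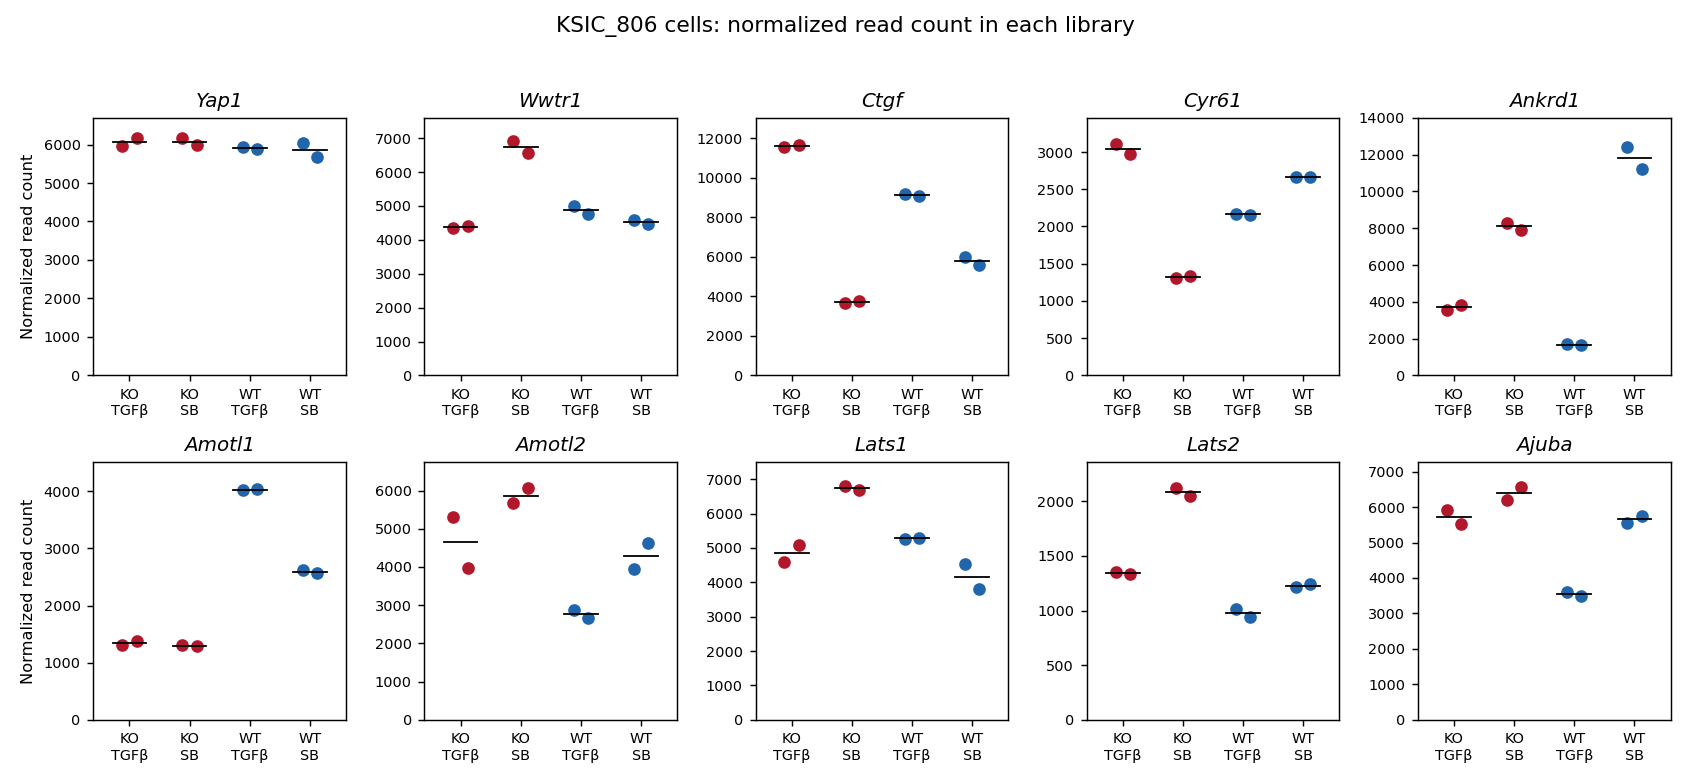
Normalized read count (vertical axis, from 0) of each member in the KSIC_806 libraries, in red for KO and blue for WT, with a point per library and a bar at the group mean (n = 2 per group). Ctgf was highest in KO TGFβ libraries, Ankrd1 was lowest in WT TGFβ libraries, and Yap1 stayed between 5675 and 6176 in every library.

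Yap1 (chromosome 9, 7931999 to 8004638), the gene of the main coactivator, had 5969 and 6176 normalized counts in KO TGFβ, 6161 and 5985 in KO SB505124, 5928 and 5872 in WT TGFβ and 6049 and 5675 in WT SB505124. TGFβ and SB505124 libraries overlapped in each genotype, and both KO TGFβ libraries lay slightly above both WT TGFβ libraries. The log2 fold change under TGFβ was 0.00 in KO (95% interval −0.15 to 0.14) and 0.01 in WT (−0.13 to 0.15), and no KSIC_806 comparison called Yap1. Its differences in KO under TGFβ, between KO and WT, and between the responses changed sign with the scaling between libraries, as the closing section gives; the WT difference kept its sign under each scaling and turned to −0.04 without WT SB505124 replicate 2. Wwtr1 (chromosome 3, 57455644 to 57575910), the gene of TAZ, had 4355 and 4395 in KO TGFβ, 6913 and 6577 in KO SB505124, 4988 and 4763 in WT TGFβ and 4582 and 4464 in WT SB505124. KO SB505124 libraries stood above all others. Wwtr1 fell in KO cells (−0.62 ± 0.06 SE, adjusted p = 0.00024), its WT change of 0.11 ± 0.06 was not called (adjusted p = 0.212), and the responses differed (KO minus WT −0.73 ± 0.09, adjusted p = 0.00239).

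Among the target genes Ctgf (chromosome 10, 24595442 to 24598683), which encodes a secreted matricellular protein, had 11526 and 11663 normalized counts in KO TGFβ, against 3665 and 3775 in KO SB505124. In WT cells it had 9161 and 9080 under TGFβ, against 5987 and 5588 under SB505124. Each TGFβ pair stood above its SB505124 pair, by 3.12-fold in KO (log2 fold change 1.64 ± 0.06, adjusted p = 2.95e-06) and 1.58-fold in WT (0.66 ± 0.06, adjusted p = 0.000211). The order of the levels was KO TGFβ, WT TGFβ, WT SB505124, KO SB505124, with no overlap between neighbours, so KO cells spanned the wider range (interaction 0.98 ± 0.09, adjusted p = 0.000928).

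Cyr61 (chromosome 3, 145646971 to 145649985), encoding a related matricellular protein and the gene whose promoter is shown above, had 3114 and 2977 in KO TGFβ, against 1307 and 1339 in KO SB505124. In WT cells it had 2170 and 2154 under TGFβ, against 2659 and 2671 under SB505124. The KO libraries moved up and the WT libraries down, with no overlap in either genotype. It rose in KO (1.20 ± 0.06, adjusted p = 1.26e-05) and fell in WT (−0.30 ± 0.06, adjusted p = 0.00868), and the interaction was 1.50 ± 0.09 (adjusted p = 0.000362). The fall in WT was not called without WT TGFβ replicate 1 (−0.31, adjusted p = 0.0723) or replicate 2 (−0.30, adjusted p = 0.0771).

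Ankrd1 (chromosome 19, 36111965 to 36119844) encodes an ankyrin repeat protein of the nucleus and sarcomere and is a much used readout of YAP and TAZ. It had 3574 and 3851 normalized counts in KO TGFβ, against 8283 and 7926 in KO SB505124, and 1716 and 1638 in WT TGFβ, against 12430 and 11223 in WT SB505124. All TGFβ libraries were below all SB505124 libraries. The level was 2.18-fold lower under TGFβ in KO (−1.13 ± 0.08, adjusted p = 3.9e-05) and 7.04-fold lower in WT (−2.82 ± 0.08, adjusted p = 1.32e-06). The WT change ranked at the 99.3 percentile of absolute log2 fold changes over all genes tested, and the fall was smaller in KO (interaction 1.69 ± 0.11, adjusted p = 0.000363).

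Of the kinase genes, Lats1 (chromosome 10, 7681200 to 7716461) had 4587 and 5096 in KO TGFβ, 6792 and 6679 in KO SB505124, 5267 and 5285 in WT TGFβ and 4520 and 3792 in WT SB505124. The KO libraries went down and the WT libraries up without overlap (KO −0.48 ± 0.09, adjusted p = 0.00606; WT 0.35 ± 0.09, adjusted p = 0.0235; interaction −0.83 ± 0.13, adjusted p = 0.00641). The WT call was lost without WT TGFβ replicate 1 (0.35, adjusted p = 0.119), WT TGFβ replicate 2 (0.35, 0.12), WT SB505124 replicate 2 (0.22, 0.0638) or either KO SB505124 library (0.35, 0.0512 and 0.0511). Lats1 shares part of its span with Pcmt1, and the library kit did not mark strand, so reads of the shared stretch cannot be told apart. Lats2 (chromosome 14, 57689662 to 57746212), itself a YAP target, had 1353 and 1332 in KO TGFβ, 2126 and 2048 in KO SB505124, 1016 and 943 in WT TGFβ and 1213 and 1246 in WT SB505124. TGFβ libraries were lower in each genotype (KO −0.64 ± 0.07, adjusted p = 0.000487; WT −0.33 ± 0.07, adjusted p = 0.011), the WT fall was not called without WT TGFβ replicate 2 (−0.27, adjusted p = 0.106), and the interaction was not called (−0.31 ± 0.10, adjusted p = 0.0706).

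Of the scaffold genes, Amotl1 (chromosome 9, 14541966 to 14662974) had 1311 and 1387 in KO TGFβ, 1305 and 1292 in KO SB505124, 4022 and 4041 in WT TGFβ and 2619 and 2567 in WT SB505124. It rose in WT (0.64 ± 0.07, adjusted p = 0.000316), its KO change of 0.05 ± 0.07 was not called (adjusted p = 0.553), and the interaction was −0.58 ± 0.09 (adjusted p = 0.00593). Amotl2 (chromosome 9, 102717091 to 102733418) had 5312 and 3981 in KO TGFβ, 5662 and 6075 in KO SB505124, 2862 and 2656 in WT TGFβ and 3941 and 4635 in WT SB505124. The KO TGFβ libraries were far apart. Amotl2 fell in WT (−0.63 ± 0.14, adjusted p = 0.011), a call lost without WT TGFβ replicate 1 (−0.69, adjusted p = 0.0534) or replicate 2 (−0.58, 0.0827). Its KO change of −0.35 ± 0.14 was not called (adjusted p = 0.0861) and was called without KO TGFβ replicate 1 (−0.56, adjusted p = 0.0106); the interaction was 0.28 ± 0.20 (adjusted p = 0.35). Ajuba (chromosome 14, 54567469 to 54577661) had 5911 and 5521 in KO TGFβ, 6191 and 6577 in KO SB505124, 3616 and 3498 in WT TGFβ and 5561 and 5743 in WT SB505124. It fell in WT (−0.67 ± 0.07, adjusted p = 0.000293), its KO value of −0.16 ± 0.07 was not called (adjusted p = 0.099), and the interaction of 0.51 ± 0.10 was called (adjusted p = 0.0106). That interaction was not called without WT TGFβ replicate 1 (0.53, adjusted p = 0.0584), WT TGFβ replicate 2 (0.48, 0.0708) or KO SB505124 replicate 1 (0.46, 0.067).

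The responses thus differed between the genotypes for 7 of the 10 members, where 21.8% of all genes were called. KO minus WT was positive for 4 (Ctgf, Cyr61, Ankrd1 and Ajuba), beside 9.71% of all genes. For Ankrd1 and Ajuba the positive value came with a smaller fall in KO, which for Ajuba was not called. KO minus WT was negative for 3 (Wwtr1, Amotl1 and Lats1), beside 12.1% of all genes. The median interaction of the members was 0.14, against −0.01 over all genes. All KSIC_806 comparisons draw on the same 8 libraries and share groups, so they are not independent of each other.

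**Figure D2:**
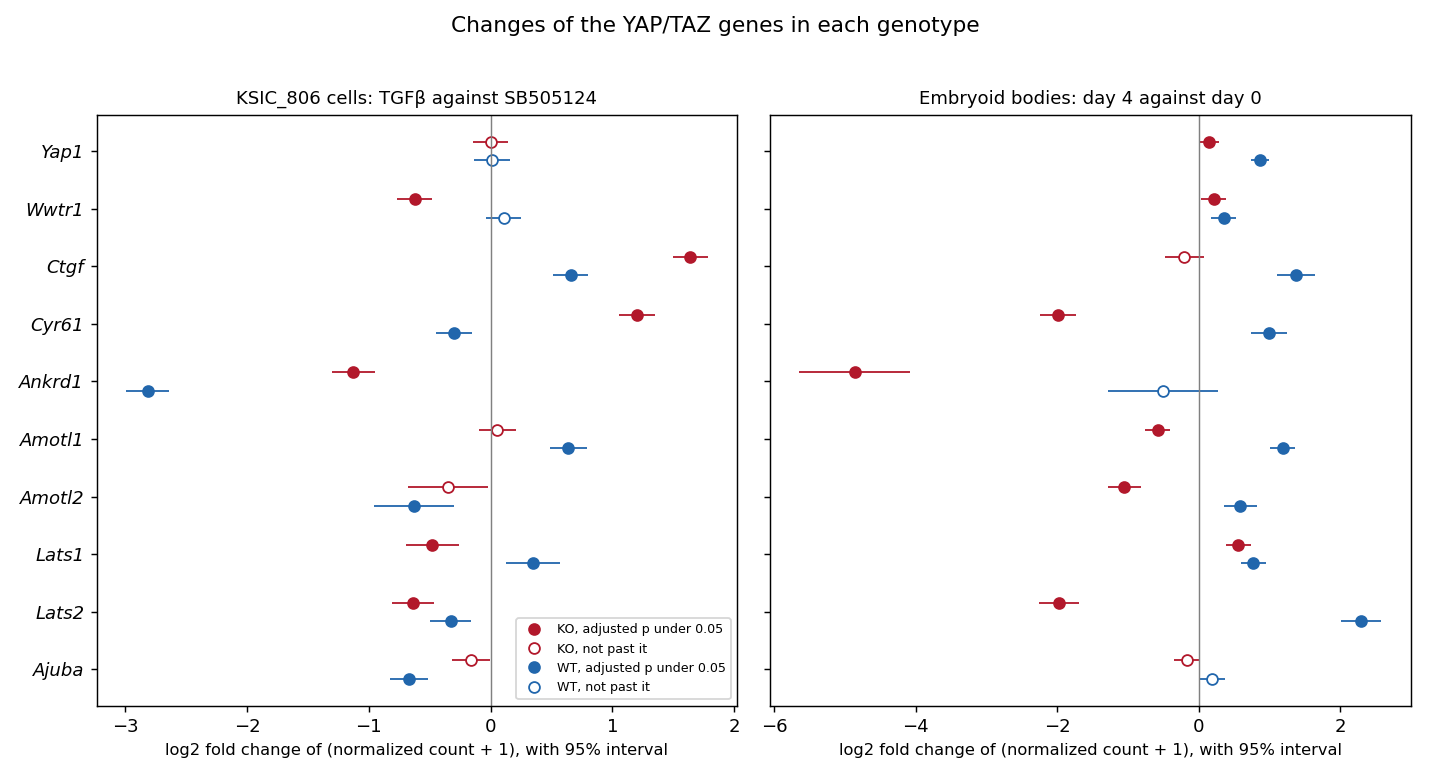
Log2 fold change of normalized count + 1 (horizontal axis) with its 95% interval, of TGFβ against SB505124 in KSIC_806 cells (left) and of day 4 against day 0 in embryoid bodies (right), in red for KO and, under it, in blue for WT; filled points passed an adjusted p of 0.05. Cyr61 moved to opposite sides of 0 in the genotypes in both systems, and the fitted value of Ankrd1 in KO embryoid bodies depends on the prior count because both KO day 4 libraries held 0 reads.

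KO and WT cells already differed under the receptor inhibitor. Under SB505124, 4 members were higher in KO (Wwtr1, Amotl2, Lats1 and Lats2) and 4 lower (Ctgf, Cyr61, Ankrd1 and Amotl1), where 56.2% of all genes were called (28.9% higher, 27.2% lower). The targets Ctgf, Cyr61 and Ankrd1 were among the lower ones, and the targets Lats2 and Amotl2 among the higher ones. Cyr61 was lower by −1.01 ± 0.06 (adjusted p = 1.31e-05), Ctgf by −0.64 ± 0.06 (0.000105) and Ankrd1 by −0.54 ± 0.08 (0.000696) on the log2 scale. Amotl1 was 2.0-fold lower in KO (−0.997 ± 0.065, adjusted p = 1.55e-05). Lats2 was higher in KO (0.76 ± 0.07, adjusted p = 0.000101), as were Lats1 (0.70 ± 0.09, 0.000547) and Wwtr1 (0.58 ± 0.06, 0.00018). Amotl2 was higher by 0.46 ± 0.14 (adjusted p = 0.0259), a call lost without WT SB505124 replicate 1 (0.34, adjusted p = 0.107), KO SB505124 replicate 1 (0.51, 0.0717) or KO SB505124 replicate 2 (0.41, 0.128), with libraries rescaled to the same total (0.30, 0.102) and after quantile normalization (0.29, 0.134). Ajuba was not called (0.18 ± 0.07, adjusted p = 0.0569) and was called by edgeR (0.20, adjusted p = 0.0456).

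Under TGFβ the same genotype contrast ran the other way for Ctgf, Cyr61 and Ankrd1, while Lats2 and Amotl2 were again higher in KO. In KO cells 6 members were higher and 1 lower, where 40.2% of all genes were called (21.2% higher, 19.0% lower), with a member median of 0.40, against −0.02 over all genes. Ankrd1 was 2.21-fold higher in KO (1.15 ± 0.08, adjusted p = 1.94e-05), Cyr61 was higher by 0.49 ± 0.06 (0.000598) and Ctgf by 0.35 ± 0.06 (0.00315). The other higher members were Amotl2 (0.74 ± 0.14, adjusted p = 0.00447), Ajuba (0.68 ± 0.07, 0.000144) and Lats2 (0.46 ± 0.07, 0.0019). Amotl1 was 2.99-fold lower in KO (−1.58 ± 0.07, adjusted p = 2.08e-06). Wwtr1 was not called (−0.16 ± 0.06, adjusted p = 0.0816) and was called lower with libraries rescaled to the same total (−0.24, adjusted p = 0.0155) and after quantile normalization (−0.23, 0.0193); Lats1 had −0.13 ± 0.09 (adjusted p = 0.327).

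The rest of the pathway was read from lists of 20 Hippo kinases and upstream regulators, 8 TEAD and VGLL genes, and 17 further genes of a published YAP/TAZ signature of human tumours; Ptpn14 is on both of the longer lists. Of 15 signature genes tested, 4 rose and 2 fell in KO cells under TGFβ (median 0.09, against 0.02 over all genes), near the 38.7% of all genes called. In WT cells 9 rose and 2 fell (0.33, against 0.00), where 36.9% of all genes were called (19.4% higher, 17.6% lower). Those with the smallest adjusted p were F3, the tissue factor gene, and Nuak2, a kinase gene. F3 had 13533 and 14656 normalized counts in KO TGFβ, against 4073 and 4172 in KO SB505124, and 33260 and 33328 in WT TGFβ, against 8951 and 7856 in WT SB505124. Nuak2 had 389 and 323 in KO TGFβ, against 56.3 and 56.9 in KO SB505124, and 1230 and 1271 in WT TGFβ, against 182 and 213 in WT SB505124. Both rose in each genotype (F3 1.77 ± 0.08 in KO and 1.99 ± 0.08 in WT; Nuak2 2.62 ± 0.13 in KO and 2.66 ± 0.13 in WT). The DNA damage gene Gadd45a rose in WT (1.75 ± 0.11, adjusted p = 3.27e-05) and its response was lower in KO (interaction −1.66 ± 0.16, adjusted p = 0.00116). Igfbp3 and Nt5e fell in both genotypes. KO minus WT of the response was called negative for 4 of the 15 signature genes and positive for 0, beside 12.1% and 9.71% of all genes. Its median was −0.26 for these 15 genes, against −0.01 over all genes. Between KO and WT under SB505124, 10 were higher and 4 lower (median 0.54), beside 28.9% and 27.2% of all genes. Under TGFβ 8 were higher and 3 lower in KO than WT (0.20), beside 21.2% and 19.0%.

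Of 19 upstream regulators tested, 3 rose and 3 fell in KO under TGFβ (median −0.09, against 0.02 over all genes), a smaller share than the 38.7% of all genes called. In WT 10 rose and 1 fell (0.30, against 0.00), beside 19.4% of all genes higher and 17.6% lower. Ptpn14, a phosphatase gene that restrains YAP, rose in KO (0.59 ± 0.06) and in WT (0.71 ± 0.06). The LATS cofactor gene Mob1b rose in WT (0.99 ± 0.10, adjusted p = 0.00028), with an interaction of −1.16 ± 0.14 (adjusted p = 0.00241). Of 6 TEAD and VGLL genes tested, 1 rose and 2 fell in KO under TGFβ, and 2 rose in WT, beside the same shares of all genes. Tead1 fell in KO (−0.28 ± 0.08, adjusted p = 0.0331) and rose in WT (0.50 ± 0.08, 0.00324). Some genes near these pathways were all but silent in KO cells: Wtip, a relative of Ajuba, had 0 reads in all 4 KO libraries, against 57.4 to 64.8 in WT TGFβ and 44.1 to 57.5 in WT SB505124, and Vgll3 had 0 to 1.81 in KO libraries, against 25.7 to 61.5 in WT.

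Markers of other cell types were read beside these results. The endothelial list (Pecam1, Cdh5, Tek) summed to 928 to 1364 in KO libraries, against 38.6 to 56.6 in WT, from Cdh5, while Pecam1 stayed at or below 1.84 and Tek at or below 7.27. The fibroblast list summed to 116 to 150.4 in KO TGFβ, 30.2 to 34.0 in KO SB505124, 255 to 287 in WT TGFβ and 40.1 to 50.5 in WT SB505124. Col1a1 carried it under TGFβ. Under SB505124 Col1a1 and Col3a1 averaged 19.06 and 12.55 in KO, and 20.57 and 21.06 in WT. Lum was at 0 or not listed in each group, and Col1a2 was at 0 under TGFβ. The immune list summed to 94.6 to 146.8 in KO and 100.0 to 123.1 in WT, the pluripotency list to 3596 to 6506 in KO and 1731 to 1915 in WT, with Klf4 as its only gene over 10, and the streak list to 17.3 to 19.9 in KO and 142 to 215 in WT, with Eomes as its only gene over 10. Their part in the results was not tested. In bulk libraries, fewer cells of a type and less RNA per cell cannot be told apart.

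In the embryoid bodies most members rose by day 4 in WT, and the members parted in KO. In KO, 3 members were higher and 5 lower at day 4, where 60.0% of all 15227 genes tested were called (29.1% higher, 30.9% lower). In WT, 8 were higher and none lower at day 4, where 63.1% of all genes were called (32.3% higher, 30.8% lower); Ankrd1 (adjusted p = 0.241) and Ajuba (0.0656) were not called. The member median was −0.39 in KO (−0.02 over all genes) and 0.82 in WT (0.00). The changes differed between the genotypes for 8 members, where 55.7% of all genes were called. KO minus WT was negative for all 8, beside 28.6% of all genes negative and 27.1% positive. Its member median was −1.61, against −0.01 over all genes.

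**Figure D3:**
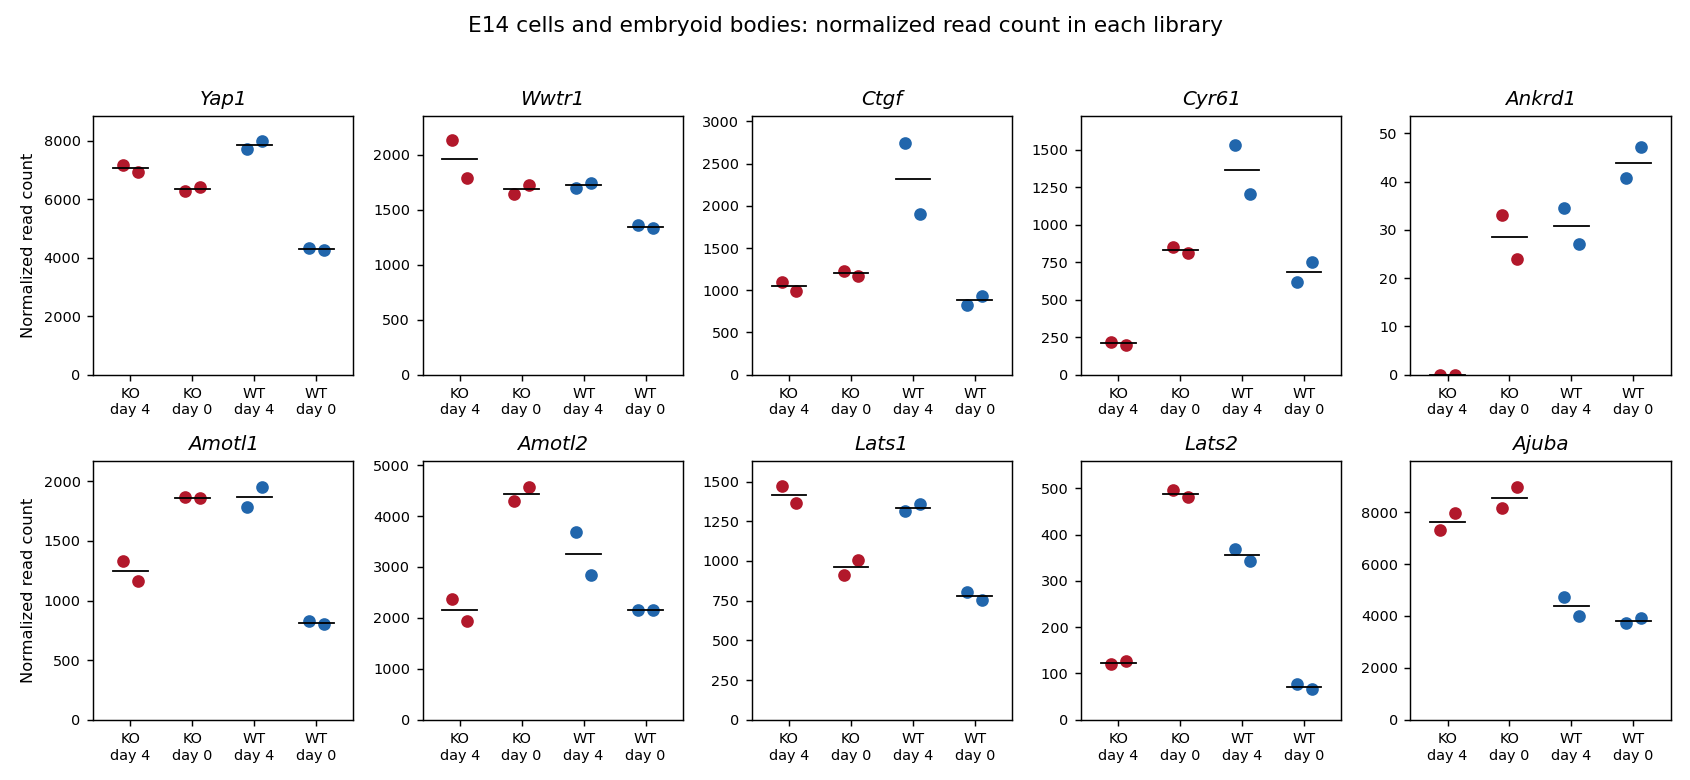
Normalized read count (vertical axis, from 0) of each member in the E14 libraries, in red for KO and blue for WT, with a point per library and a bar at the group mean (n = 2 per group). Lats2 was high in KO day 0 and WT day 4 libraries and low in KO day 4 and WT day 0 libraries, and Ankrd1 was at 0 in both KO day 4 libraries.

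Among the members with reads in every library, Lats2 differed most between the genotypes in its day 4 change. It had 120.0 and 127 normalized counts in day 4 KO, against 495 and 480 in day 0 KO, and 368 and 342 in day 4 WT, against 76.4 and 66.6 in day 0 WT. KO libraries were above WT libraries at day 0 and below them at day 4, with no overlap between any groups. The level was 3.93-fold lower at day 4 in KO (−1.97 ± 0.13, adjusted p = 1.94e-08) and 4.92-fold higher in WT (2.30 ± 0.13, adjusted p = 2.99e-09), and the interaction was −4.27 ± 0.19 (adjusted p = 6.03e-10). Lats1 did not follow it: it had 1471 and 1364 in day 4 KO, 914 and 1005 in day 0 KO, 1312 and 1360 in day 4 WT and 806 and 756 in day 0 WT. It rose in KO (0.56 ± 0.08, adjusted p = 3.55e-05) and in WT (0.77 ± 0.08, 1.35e-06), and the interaction was not called (−0.21 ± 0.11, adjusted p = 0.132).

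Of the target genes Cyr61 had 218 and 199 in day 4 KO, against 850 and 813 in day 0 KO, and 1529 and 1204 in day 4 WT, against 618 and 749 in day 0 WT. KO day 4 libraries were the lowest and WT day 4 libraries the highest. Cyr61 fell in KO (−1.99 ± 0.12, adjusted p = 6.02e-09) and rose in WT (1.00 ± 0.12, 5.82e-06), with an interaction of −2.98 ± 0.17 (adjusted p = 7.03e-09). Ctgf had 1097 and 994 in day 4 KO, 1234 and 1165 in day 0 KO, 2741 and 1904 in day 4 WT and 831 and 930.2 in day 0 WT. It rose in WT (1.38 ± 0.13, adjusted p = 4.18e-07), where the day 4 libraries were far apart, its KO value of −0.20 ± 0.13 was not called (adjusted p = 0.194), and the interaction was −1.58 ± 0.18 (adjusted p = 6.21e-06).

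Ankrd1 had few reads in E14 cells. It had 0 reads in both KO day 4 libraries, against 33.1 and 23.9 normalized counts in day 0 KO, and 34.6 and 27.0 in day 4 WT, against 40.7 and 47.2 in day 0 WT, which rest on 25 to 41 reads a library. A floor of 3 reads over the KO day 4 group corresponds to 1.58 normalized counts. The mean of KO day 0 was 18.0-fold above that floor and the mean of WT day 4 was 19.5-fold above it. These folds leave out the spread of the day 0 KO and day 4 WT libraries. The fitted log2 values of −4.86 ± 0.36 and −4.98 ± 0.36, and the interaction of −4.36 ± 0.52 (adjusted p = 8.01e-06), depend on the prior count and are no bounds. With Ankrd1 at the values from the floor, the member medians stayed at −0.39 and −0.59. The WT change of −0.51 ± 0.36 was not called (adjusted p = 0.241) and was called lower after quantile normalization (−0.85, adjusted p = 0.0479).

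Both angiomotin-like genes went in opposite directions in KO and WT. Amotl1 had 1335 and 1163 in day 4 KO, 1868 and 1856 in day 0 KO, 1781 and 1950 in day 4 WT and 830 and 801 in day 0 WT. KO day 0 and WT day 4 libraries overlapped. Amotl1 fell in KO (−0.58 ± 0.08, adjusted p = 3.11e-05) and rose in WT (1.19 ± 0.08, 1.72e-08), with an interaction of −1.77 ± 0.12 (2.69e-08). Amotl2 had 2362 and 1940 in day 4 KO, 4296 and 4567 in day 0 KO, 3678 and 2841 in day 4 WT and 2154 and 2151 in day 0 WT. It fell in KO (−1.05 ± 0.11, adjusted p = 1.5e-06) and rose in WT (0.59 ± 0.11, 0.000293), with an interaction of −1.64 ± 0.15 (9.05e-07). Ajuba was at 7320 and 7952 in day 4 KO, 8157 and 8959 in day 0 KO, 4749 and 3981 in day 4 WT and 3727 and 3907 in day 0 WT, so every KO library stood above every WT library. Neither of its day 4 changes was called (KO −0.16 ± 0.08, adjusted p = 0.109; WT 0.19 ± 0.08, 0.0656), and the WT change was called without WT day 4 replicate 2 (0.32, adjusted p = 0.017), with libraries rescaled to the same total (0.26, 0.0155) and after quantile normalization (0.30, 0.00884). Its interaction was called (−0.35 ± 0.12, adjusted p = 0.0219), but not without WT day 0 replicate 1 (−0.32, 0.083), WT day 4 replicate 1 (−0.23, 0.132), KO day 0 replicate 2 (−0.28, 0.0984) or KO day 4 replicate 1 (−0.29, 0.0638).

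The coactivator genes moved upward. Yap1 had 7156 and 6935 in day 4 KO, 6281 and 6423 in day 0 KO, 7694 and 7992 in day 4 WT and 4342 and 4245 in day 0 WT. WT day 0 libraries were the lowest. Yap1 rose in WT (0.87 ± 0.06, adjusted p = 2.42e-08) and by less in KO (0.15 ± 0.06, 0.0491), with an interaction of −0.72 ± 0.09 (9.9e-06). The KO call lay at the threshold and was lost with no filter on low values (adjusted p = 0.0543) and without WT day 0 replicate 1 (0.0781) or 2 (0.0783), KO day 0 replicate 1 (0.13, 0.187) or 2 (0.17, 0.106), or KO day 4 replicate 1 (0.13, 0.124). Wwtr1 had 2139 and 1787 in day 4 KO, 1648 and 1724 in day 0 KO, 1698 and 1749 in day 4 WT and 1359 and 1335 in day 0 WT. It rose in WT (0.36 ± 0.08, adjusted p = 0.00186) and in KO (0.21 ± 0.08, 0.0383), where the call was lost with no filter on low values (0.0594) and without either WT day 0 library (0.0565 each), either WT day 4 library (0.0684 each), KO day 0 replicate 1 (0.18, 0.172) or 2 (0.25, 0.0709), or KO day 4 replicate 1 (0.08, 0.366). Its interaction was −0.14 ± 0.12 (adjusted p = 0.323) and was called without KO day 4 replicate 1 (−0.27, 0.0309).

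Most members were already higher in KO than in WT E14 cells at day 0. At that time 9 of the 10 were higher in KO and none lower, where 67.2% of all genes were called (33.9% higher, 33.3% lower), with a member median of 0.51, against 0.00 over all genes. Lats2 was 6.75-fold higher in KO (2.76 ± 0.13, adjusted p = 7.02e-10). Amotl1 (2.28-fold), Ajuba (2.24-fold) and Amotl2 (2.06-fold) followed, and Yap1 was 1.48-fold higher (adjusted p = 1.77e-06). Ctgf (0.45 ± 0.13, adjusted p = 0.00673), Wwtr1 (0.32 ± 0.08, 0.00332), Lats1 (0.30 ± 0.08, 0.00504) and Cyr61 (0.29 ± 0.12, 0.0466) moved less, and Ankrd1 was not called (−0.62 ± 0.36, 0.145). The Ctgf call was lost without WT day 0 replicate 1 (0.37, adjusted p = 0.0678), and the Lats1 call without WT day 0 replicate 2 (0.25, 0.0575) or KO day 0 replicate 2 (0.23, 0.0647). The Cyr61 call was lost without WT day 0 replicate 1 (0.15, adjusted p = 0.383), KO day 0 replicate 1 (0.26, 0.17) or 2 (0.32, 0.0916), with edgeR (0.0585), with DESeq2 (0.0645) and under the other scalings and filter (0.08 to 0.103).

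At day 4 the order was turned round for most members. In KO, 1 member was higher (Ajuba, 0.81 ± 0.08, adjusted p = 1.67e-06) and 7 were lower, where 56.2% of all genes were called (27.8% higher, 28.4% lower), with a member median of −0.59, against −0.01 over all genes. Cyr61 was 6.48-fold lower in KO (−2.70 ± 0.12, adjusted p = 2.91e-10), Lats2 2.86-fold (−1.52 ± 0.13, 3.01e-07) and Ctgf 2.19-fold (−1.13 ± 0.13, 3.84e-06). Amotl1 (−0.58 ± 0.08) and Amotl2 (−0.59 ± 0.11) were also lower, with adjusted p of 3.21e-05 and 0.000315. Yap1 was lower by 0.15 on the log2 scale (−0.15 ± 0.06, adjusted p = 0.0449), a call lost without any library but KO day 4 replicate 1 (adjusted p of 0.0585 to 0.165). Wwtr1 was not called (0.18 ± 0.08, adjusted p = 0.0769) and was called higher without KO day 4 replicate 2 (0.31, 0.0035). Lats1 had 0.09 ± 0.08 (adjusted p = 0.39), which turned to −0.01 with libraries rescaled to the same total.

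The other genes of the pathway were counted in the same way. Of 17 signature genes tested, 2 rose and 12 fell in day 4 KO (median −1.09, against −0.02 over all genes), beside 29.1% of all genes higher and 30.9% lower. In WT 12 rose and 3 fell (1.09, against 0.00), beside 32.3% higher and 30.8% lower. KO minus WT of the change was negative for 13 and positive for none, beside 28.6% and 27.1% of all genes. Myof had the smallest adjusted p of these genes in day 4 KO and fell in both genotypes (KO −2.58 ± 0.08, adjusted p = 5.31e-12; WT −1.44 ± 0.08, 1.13e-09). Gadd45a also fell in both (KO −1.25 ± 0.10, WT −0.41 ± 0.10). Nt5e, encoding the ectoenzyme CD73, had 11.3 and 11.8 in day 4 KO, against 73.8 and 74.6 in day 0 KO, and 134.5 and 149 in day 4 WT, against 85.3 and 95.7 in day 0 WT. Tgfb2, a TGFβ ligand gene, had 15.8 and 39.4 in day 4 KO, 140.0 and 135 in day 0 KO, 409 and 700.3 in day 4 WT and 47.6 and 40.0 in day 0 WT, and its interaction was −5.99 ± 0.46 (adjusted p = 1.48e-07). Of the 20 upstream regulators 4 rose and 6 fell in day 4 KO, where 60.0% of all genes were called, and 11 rose and 4 fell in WT, where 63.1% were. Amot, the founding angiomotin gene, had 397 and 382 in day 4 KO, 203 and 219 in day 0 KO, 11651 and 18413 in day 4 WT and 230.2 and 206 in day 0 WT. Its rise in WT was 6.07 ± 0.15 on the log2 scale (adjusted p = 1.68e-12), against 0.88 ± 0.15 in KO (0.000178), with an interaction of −5.18 ± 0.22 (3.41e-10). Of 6 TEAD and VGLL genes tested, 2 rose and 3 fell in day 4 KO and 5 rose and 1 fell in WT, beside the same shares; Tead1 fell in KO (−1.08 ± 0.09, adjusted p = 1.09e-07) and rose in WT (0.53 ± 0.09, 1e-04).

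Sums of cell-type markers also differed between these groups. By day 4 the pluripotency and endothelial lists fell in both genotypes, and the streak list rose in both. The list of streak and mesoderm genes (T, Mixl1, Eomes, Mesp1, Kdr, Tbx6) summed to 766 to 777 in day 4 KO, 307 to 332 in day 0 KO, 5606 to 10160 in day 4 WT and 161 to 197 in day 0 WT, with 4, 5, 6 and 3 of its 6 genes at a mean of at least 10. The pluripotency list summed to 61790 to 62840 in day 4 KO, 113900 to 120000 in day 0 KO, 31630 to 32110 in day 4 WT and 101800 to 102800 in day 0 WT. The fibroblast list summed to 330 to 482 in day 4 KO, 414 to 558 in day 0 KO, 2358 to 2728 in day 4 WT and 265 to 295 in day 0 WT, with Postn at 0 in day 4 KO. The endothelial list, led by Pecam1, which stem cells also express, summed to 3415 to 3444 in day 4 KO, 5894 to 6052 in day 0 KO, 1205 to 1342 in day 4 WT and 3224 to 3277 in day 0 WT, with Cdh5 at 0 in day 4 KO. The epithelial list summed to 22000 to 24280 in day 4 KO and 32840 to 34460 in day 4 WT, and the immune list, led by Cd68, to 1008 to 1301 in day 4 KO and 576 to 780 in day 4 WT. Their part in the results was not tested.

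In the organoids, with 1 library per condition, differences have no replicate check and the 95% counting intervals cover counting error only. With dox, Ctgf was the only member past 2-fold under TGFβ, where 6.75% of 13443 genes were past it (3.52% higher, 3.24% lower). Ctgf had 20680 normalized counts in dox TGFβ, against 2310 in dox SB505124, which was 8.95-fold (log2 ratio 3.16, interval 3.11 to 3.22). Without dox, Ctgf and Amotl1 were past 2-fold, where 6.41% of genes were (3.56% higher, 2.85% lower). Ctgf had 9422 in TGFβ without dox, against 4072 in SB505124 without dox (2.31-fold), and Amotl1 had 5407, against 2402 (2.25-fold). With dox Amotl1 had 4442 under TGFβ, against 2352 under SB505124 (1.89-fold).

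**Figure D4:**
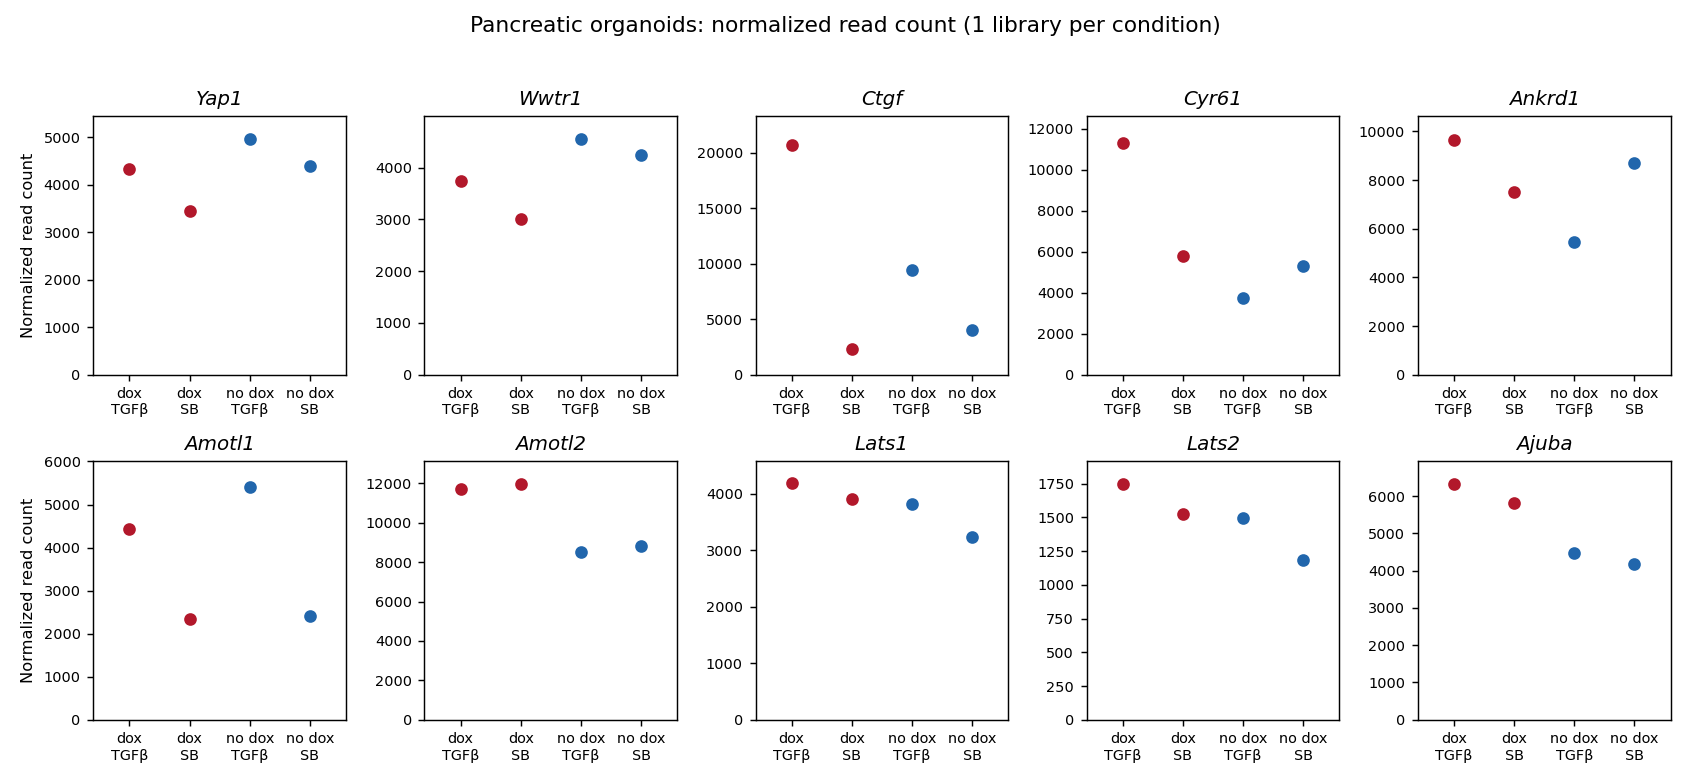
Normalized read count (vertical axis, from 0) of each member in the 4 organoid libraries, in red with dox and blue without, with 1 point per library and no replicates. Ctgf and Cyr61 were highest in the dox TGFβ library, and Wwtr1 and Yap1 were lower in both dox libraries than in their counterparts without dox under the same treatment.

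Cyr61 and Ankrd1 went in opposite directions with and without dox. Cyr61 had 11292 in dox TGFβ, against 5800 in dox SB505124 (log2 ratio 0.96, interval 0.92 to 1.00), and 3732 in TGFβ without dox, against 5286 in SB505124 without dox (−0.50, −0.56 to −0.44). Ankrd1 had 9634 in dox TGFβ, against 7525 in dox SB505124 (0.36, 0.31 to 0.40), and 5435 in TGFβ without dox, against 8722 in SB505124 without dox (−0.68, −0.73 to −0.63). These differences between dox states were not tested. Of the coactivator genes, Yap1 had 4322 in dox TGFβ, 3442 in dox SB505124, 4962 in TGFβ without dox and 4385 in SB505124 without dox, and Wwtr1 3746, 3002, 4549 and 4243 in the same order. Lats1, Lats2, Amotl2 and Ajuba had TGFβ ratios between −0.05 and 0.34 on the log2 scale in both dox states, and all 4 were higher with dox than without under each treatment, by 1.09-fold (Lats1) to 1.41-fold (Ajuba) under TGFβ and 1.20-fold (Lats1) to 1.39-fold (Ajuba) under SB505124. Under TGFβ and SB505124 Amotl2 had 11696 and 11978 with dox, against 8529 and 8804 without, and Ajuba had 6312 and 5807 with dox, against 4471 and 4171 without. Lats1 had 4185 and 3899 with dox, against 3823 and 3237 without, and Lats2 had 1745 and 1527 with dox, against 1494 and 1181 without.

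Dox against no dox put 2 members past 2-fold under TGFβ, Cyr61 (3.03-fold) and Ctgf (2.19-fold), where 17.4% of genes were past it (7.84% higher, 9.6% lower), and none under SB505124, where 17.5% were (7.93% higher, 9.57% lower). Under SB505124 Ctgf had a log2 ratio of −0.82 and Wwtr1 of −0.50. The median TGFβ ratio of the members was 0.32 with dox (−0.02 over all genes) and 0.14 without (0.00). Of the 17 signature genes, Nuak2 and Rbms3 were past 2-fold with dox under TGFβ and Fjx1 without dox, beside 6.75% and 6.41% of all genes. Nuak2 had 3378 in dox TGFβ, against 1462 in dox SB505124, and 3007 in TGFβ without dox, against 1961 in SB505124 without dox. None of the 20 upstream regulators was past 2-fold under TGFβ in either dox state, beside the same 6.75% and 6.41% of all genes. Fibroblast, immune and endothelial lists summed to at most 52.7, 240 and 28.5 in any organoid library, with Ptprc at 0 in 3 of the 4.

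Set side by side over the TGFβ comparisons, each within its own table, the log2 change of Ctgf was 1.64 in KO and 0.66 in WT KSIC_806 cells and 3.16 with dox and 1.21 without dox in organoids, positive in each. That of Amotl1 was 0.05, 0.64, 0.92 and 1.17 in the same order, and that of Yap1 0.00, 0.01, 0.33 and 0.18. Cyr61 had 1.20, −0.30, 0.96 and −0.50, and Ankrd1 −1.13, −2.82, 0.36 and −0.68. The TGFβ comparisons of the KSIC_806 cells and the organoids share no library, the organoid values have no test, and KO and dox are different interventions.

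Genes whose pattern was most like that of a target were taken from the Pearson correlation of log2(value + 1), centred within each table, over the 20 libraries, among genes with a mean of at least 50 in each table (10032 ranked for Ctgf and Cyr61, 10033 for Ankrd1). For Ctgf these were Fbln2 (r = 0.853), Gpr125 (0.853) and Mtmr11 (0.85). Fbln2, encoding the matrix protein fibulin-2, averaged 25900 in dox TGFβ organoids, against 2010 in dox SB505124. In KSIC_806 cells it averaged 43000 in KO TGFβ, against 56600 in WT TGFβ, while Ctgf was higher in KO TGFβ. In E14 cells it averaged 149 in day 4 KO, against 314 in day 0 KO, and 670 in day 4 WT, against 170 in day 0 WT. For Cyr61 they were S100a6 (0.879), Htra1 (0.873) and Zcchc17 (0.859). For Ankrd1 they were Anxa3 (0.919), Tagln (0.901) and Emc4 (0.888); within the organoids alone the value of Tagln was −0.744. The libraries of a table share groups of 2, and the day 4 KO libraries, with the lowest levels of Ankrd1, S100a6, Htra1 and Anxa3 in the EB table, weigh on these values.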

How the data were processed

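RNA had an integrity number above 9.5 and went into TruSeq v2 libraries, which do not mark strand, per the labels' protocols. FastQC 0.11.5, Bowtie2, HTSeq 0.6.1p1, DESeq2 3.4 and the mm10 build are named, without roles, per the submitters' processing notes. The deposited values are a signal per gene, read counts divided by a size factor by the authors; every value came out as a whole number of reads within 0.001, which gave the depths above. Genes reaching a value of 10 in 2 or more of a table's 8 libraries entered limma 3.58.1 (R 4.3.3) with a trend on log2(value + 1), 4 groups of 2 libraries, two-sided, with Benjamini-Hochberg adjustment: 13226 genes in KSIC_806 cells and 15227 in E14 cells. Organoid genes with a mean of at least 10 gave ratios with exact 95% counting intervals and no test. All 10 members passed these filters. The alternatives were a pseudocount of 5, no filter, other scalings, edgeR 4.0.16 and DESeq2 1.42.0 on the recovered reads, a replicate block, and each library left out. All members were named; from the other lists, up to 3 genes with the smallest adjusted p in each direction could be named, and Wtip and Vgll3 were chosen after their values were seen. Members and lists were chosen with earlier results of these data known.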

Additional observations from a re-analysis of the deposited data

Results flagged for a closer look

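The response to TGFβ differed between KO and WT KSIC_806 cells by the interaction term of limma for 7 members. KO minus WT was 1.69 for Ankrd1, 1.50 for Cyr61, 0.98 for Ctgf and 0.51 for Ajuba, and −0.83 for Lats1, −0.73 for Wwtr1 and −0.58 for Amotl1, on the log2 scale. The day 4 change differed between KO and WT embryoid bodies for 8 members. KO minus WT was −4.36 for Ankrd1, a fitted value that depends on the prior count, −4.27 for Lats2, −2.98 for Cyr61, −1.77 for Amotl1, −1.64 for Amotl2, −1.58 for Ctgf, −0.72 for Yap1 and −0.35 for Ajuba. In organoids the log2 TGFβ ratio with dox minus that without dox was 1.46 for Cyr61 and 1.04 for Ankrd1, whose ratios had opposite signs in the dox states. That difference was not tested, since each condition had 1 library.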

How the results depend on the processing

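Of 77 member calls in 100 member tests over 10 comparisons, 64 were kept under all 15 alternatives. The other calls are given beside their results. Between 21.8% and 67.2% of all genes were called in these comparisons, and the share of all-gene calls kept under every alternative was not counted. Yap1 differences in 4 KSIC_806 comparisons changed sign with the scaling. With libraries rescaled to the same total they were 0.1104 for TGFβ against SB505124 in KO, 0.0605 for KO minus WT, −0.102 for KO against WT under SB505124 and −0.0415 under TGFβ. After quantile normalization they were 0.0608, 0.0545, −0.1147 and −0.0603 in the same order. Leaving out each library gave −0.0248 to 0.0245 in KO, −0.0359 to 0.0562 in WT and −0.0564 to 0.0358 for KO minus WT. Lats1 in KO against WT at day 4 was −0.0122 after rescaling. The members called in WT under TGFβ numbered 4 to 8 with each library left out. Rescaling moved the median of all genes to 0.133 for TGFβ in KO, −0.156 for KO against WT under SB505124 and −0.106 at day 4. Over all genes, TGFβ responses that differed between the genotypes numbered 2886, against 1596 with the replicate block and 764 to 3881 with each library left out. Leaving out each library gave 2956 to 5931 calls for TGFβ in KO (5113 with all), 2254 to 5183 in WT (4887) and 3212 to 6148 for KO against WT under TGFβ (5316). The deviations of same-numbered libraries correlated at −0.506 to 0.144 in KSIC_806 cells and −0.033 to 0.091 in E14 cells. The value of −0.506 was for KO TGFβ with WT SB505124, the groups whose replicates stood furthest apart, so there replicate 1 of each deviated like replicate 2 of the other. The labels do not tie the numbers to a shared culture or day, and they were taken as numbers only. The block ended the calls of Lats1 in WT under TGFβ (0.35, adjusted p = 0.0509) and Yap1 in day 4 KO (0.15, adjusted p = 0.0544). Leaving out the shallow KO SB505124 library, which leaves 1 library in that group, ended 3 kinds of call. They were Lats1 in WT under TGFβ (0.35), Ajuba for KO minus WT (0.46) and Amotl2 for KO against WT under SB505124 (0.51).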
